A study of Homo sapiens with 9 samples.

Results

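The genes described here encode 10 factors that cut pre-mRNA at its 3′ end and add or bind the poly(A) tail. They are CPSF1, CPSF2, CPSF4, CSTF1, CSTF2, CSTF3, NUDT21, CPSF6, PCF11 and PABPN1, taken as a named list, and they are 10 of the 22384 genes of Gencode v44 with at least 1 read pair. A read pair counted for a gene when both of its ends lay on the gene's strand, inside the gene or within 1 kb of it. All 10 genes passed the filter on low counts and were among the 12135 genes tested. Together they held 15825 of 15358140 read pairs (0.103%), from 82 pairs for CPSF1 to 3689 for CPSF6.

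The read pairs come from TIF-Seq2, in which capped and polyadenylated RNA is copied as full-length cDNA and circularised, so that a pair of reads gives the start and the poly(A) end of 1 molecule. The cells were K562, an established human line from chronic myeloid leukaemia. They were exposed to 1 µM imatinib, an inhibitor of the kinase that drives this leukaemia, or to its solvent DMSO, for 24 h in both conditions. Each condition had 2 libraries (replicate 1 and replicate 2), described as biological replicates of the same line, so p-values measure the spread between 2 cultures of 1 line.

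As background, the CPSF complex reads the hexamer AAUAAA upstream of a cleavage site and cuts the RNA, and the CstF complex binds the U- or GU-rich stretch downstream of it. The CFIm complex, of which NUDT21 is the subunit that binds RNA, marks UGUA motifs and favours distal sites in 3′ UTRs, while PCF11, in the CFII complex, couples cleavage to the release of RNA polymerase II. PABPN1 binds the new tail in the nucleus. Genes of this machinery can themselves carry poly(A) sites in early introns, of which CSTF3 and PCF11 are known cases, and transcripts that end there lack most of the coding sequence.

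The 4 libraries held 2263121 to 5135829 read pairs, with imatinib replicate 2 the shallowest. In 7.82% to 9.80% of pairs the 3′ end lay before 7 or more A in the next 10 nt of the genome, where the primer can start inside the RNA. These A-rich ends were kept for gene levels and left out of all values on poly(A) sites. Replicates of a condition correlated at 0.978 (DMSO) and 0.952 (imatinib) on log2 CPM over genes, a description across genes. The deviations of DMSO replicate 2 from its condition's mean went with those of imatinib replicate 1 (correlation 0.236 over genes), which are the deepest libraries, and the part of depth in this was not tested. The erythroid markers GATA1, TAL1, KLF1, HBE1 and TFRC were detected in every library. KLF1, a transcription factor of red cell precursors, had 80.8 and 75.1 CPM in DMSO and 233 and 211 CPM after imatinib. GATA1 overlapped between the conditions, at 179 and 239 CPM in DMSO and 215 and 182 CPM after imatinib. TAL1 had 14.5 and 31.3 CPM in DMSO and 89.2 and 31.6 CPM after imatinib. HBE1 (1329 and 1128 against 3180 and 3234 CPM) and TFRC (126 and 113 against 241 and 189 CPM) were higher in both imatinib libraries. Of markers of other blood cells, CD3E and CD14 had no pair, MPO had 1, and PTPRC was detected at 8.26 to 17.7 CPM.

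A poly(A) site here is a cluster of 3′ ends, placed at its most used position, and 47 such sites were found in the 10 genes. The sites that carry the differences between short and long transcripts are shown first, with 1 A-rich end. Each is given as the last 30 nt of the RNA up to the 3′ end of the pairs, 5′ to 3′ on the gene's strand, read from hg38. Capitals mark the hexamer AATAAA or ATTAAA that lies nearest the end. CSTF3 and PCF11 were chosen for the contrast between an early intron and the terminal exon, and NUDT21 for its tandem sites. CSTF2 was chosen for the lack of a hexamer in this window, and PABPN1 for an A-rich end, listed after its annotated one. That A-rich end is not among the 47 sites, and it need not be a cleavage position.
CSTF3 intron 3, chr11:33141432 (-): ttgcaacaacATTAAAacagtttcaatggt
CSTF3 intron 3, chr11:33141505 (-): gtataaaggagtaATTAAAatgaatttttg
CSTF3 terminal exon, chr11:33084585 (-): gtcctttaaaaAATAAAaggattcagaaac
PCF11 intron 1, chr11:83158879 (+): aaaatttgtgAATAAAacatataaaatatg
PCF11 terminal exon, chr11:83185205 (+): aattataAATAAAaaatatttttgctattc
PCF11 terminal exon, chr11:83185791 (+): ttcatacatgtAATAAAtagaatgatgaag
NUDT21 proximal, chr16:56432625 (-): acagtgtagAATAAAtgtggtagaaaagtt
NUDT21 middle, chr16:56431679 (-): caaatttgggggAATAAAaaatattagagc
NUDT21 distal, chr16:56429137 (-): attgtcatttcAATAAAaaatatttgaaag
CSTF2 terminal exon, chrX:100840932 (+): taaactttgaacacaattttagtacactgc
PABPN1 annotated end, chr14:23326158 (+): tgtgtcatgAATAAAgttgtttttgaaaat
PABPN1 A-rich end, chr14:23325315 (+): aaaaaagtgtgtattaggaggagagagagg

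One of these hexamers lay in the last 30 nt of 33 of the 47 sites, and of 15 of the 18 sites that held at least 10% of the pairs in sites of their gene. Over all 25542 poly(A) sites of protein-coding genes 64.2% had one, against 25.1% of 10141 A-rich ends with at least 10 pairs and 3.24% of windows of the same length taken 500 nt upstream of the sites. AATAAA and ATTAAA were searched on the RNA strand only, and a match is a description of the sequence.

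CSTF3 (chr11:33077188-33162371, minus strand, hg38), the CstF subunit that holds the complex together, was captured mostly as a short transcript. Of 3126 pairs, 77.8% ended before the terminal exon of the canonical transcript (Wilson 95% interval 76.3% to 79.2%, counting error only), and 2420 of the 2431 early ends lay in intron 3. Among 7582 genes with at least 100 pairs, 494 had a larger early share. The median gene had 1.81% and the 90th percentile stood at 55.1%.

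The main early site of CSTF3, with ATTAAA in the sequence above, lay 20048 nt from the start of a gene whose canonical transcript spans 76897 nt, and 33 nt past the end of an annotated short transcript of 2 exons and 715 nt. It held 2139 pairs, or 69.3% and 68.1% of the gene's pairs in DMSO and 73.6% and 55.3% after imatinib. A second site 73 nt before it, also with ATTAAA, held 128 pairs, and 3 further sites in intron 3 held 10 to 57 pairs each. Of the pairs at the main site 99.5% started within 500 bp of the canonical start, and 1819 of them used the start cluster at chr11:33161480. These molecules thus ran from the gene's own start to intron 3.

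The full-length CSTF3 end, at the AATAAA site in the terminal exon, held 666 pairs. Its level was 48.9 and 38.5 CPM in DMSO and 27.2 and 50.6 CPM after imatinib, so the conditions overlapped. The level of the main early site was 159 and 129 CPM in DMSO and 121 and 79.8 CPM after imatinib, without overlap. Levels of single sites were not tested. The relative log2 usage of this early site changed by -0.05 and was not called in edgeR's diffSpliceDGE test. At the full-length end imatinib replicate 1 was the lowest library and imatinib replicate 2 the highest, while at the early site imatinib replicate 2 was the lowest.

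The early share of CSTF3 was 78.0% and 78.6% in DMSO and 82.6% and 63.8% after imatinib (means 78.3% ± 0.467 and 73.2% ± 13.3, SD, n = 2 each). The imatinib libraries lay on either side of both DMSO libraries, and imatinib replicate 2 stood apart. The log2 change of the early to terminal ratio was -0.31 (SE 0.51, 95% interval -1.40 to 0.78) in a fit of both end classes over 2083 genes, and edgeR's adjusted p was 0.764. Without imatinib replicate 2 it was 0.39, the opposite direction, with an adjusted p of 0.960 in the diffSpliceDGE test.

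**Figure D1:**
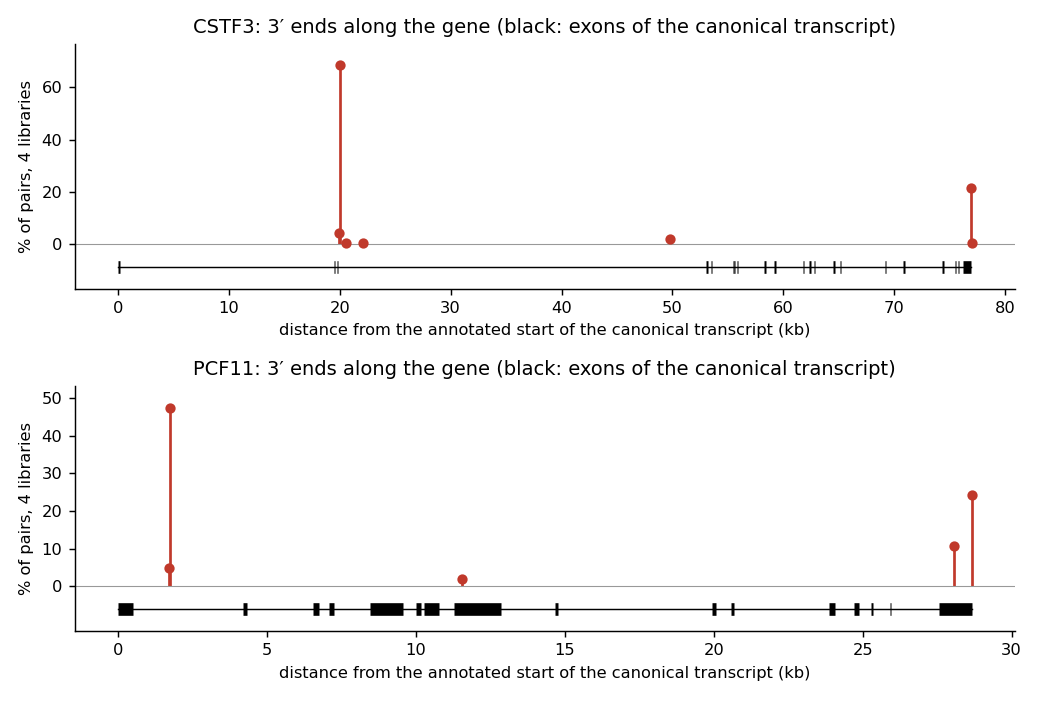
Share of a gene's read pairs (%, 4 libraries together) at each poly(A) site of CSTF3 and PCF11, against the distance from the annotated start (kb), with exons in black below. CSTF3 has 68.4% of its pairs at 1 site in intron 3 and 21.3% at its terminal site, and PCF11 has 47.5% at 1 site in intron 1 and 24.2% and 10.7% at 2 terminal sites.

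PCF11 (chr11:83156988-83187451, plus strand) also ended early in most of its captured pairs. Of 653 pairs, 62.2% (Wilson 95% interval 58.4% to 65.8%) ended before the terminal exon, and 368 of the 406 early ends lay in intron 1. Its early share was above that of 91.1% of the 7582 genes. The main early site held 310 pairs and lay 1748 nt from the canonical start, at the end of an annotated transcript of 1 exon and 1720 nt whose Gencode class, TEC, marks it as in need of experimental proof. Of its pairs 98.4% started within 500 bp of the canonical start.

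The main intron 1 site of PCF11 held 41.8% and 47.7% of the gene's pairs in DMSO and 47.8% and 52.6% after imatinib. Its level was 12.1 and 16.5 CPM in DMSO and 24.0 and 20.6 CPM after imatinib. Both imatinib libraries were above both DMSO libraries in both measures, in share only by 47.8% against 47.7% at the nearest values. The site's usage was not called (relative log2 usage 0.09, SE 0.41, edgeR diffSpliceDGE adjusted p = 1 over 10236 sites). A smaller site in intron 1 (chr11:83158836, AATAAA) held 32 pairs. It took 7.27% and 4.57% in DMSO and 4.82% and 3.09% after imatinib, so there the conditions overlapped.

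The 2 terminal sites of PCF11, 311 and 897 nt past the stop codon, held 70 and 158 pairs. The distal one took 19.1% and 25.9% of pairs in DMSO and 27.3% and 18.6% after imatinib, and the proximal one 14.5% and 11.2% in DMSO and 7.23% and 14.4% after imatinib. The deeper library of each condition had the larger distal and the smaller proximal share, and the conditions overlapped at both sites.

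How often long PCF11 molecules were captured bears on these shares. Terminal pairs of PCF11 ended in its terminal exon or past it, up to 1 kb beyond the gene. Only 15.4% of them started within 500 bp of the canonical start, for a spliced length of 6270 nt. Over genes with at least 50 such pairs, the median of this share was 96.2% for transcripts up to 1.5 kb, 87.5% from 1.5 to 3 kb, 70.7% from 3 to 5 kb and 40.2% above 5 kb. Counted over pairs that start near the canonical start, the early share of PCF11 was 91.2%, against 80.9% for CSTF3, whose full-length transcript is 2812 nt. Loss of long molecules and a lower output of the long form cannot be told apart in these libraries.

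The early share of PCF11 was 60.9% and 60.4% in DMSO and 63.9% and 62.9% after imatinib (means 60.7% ± 0.356 and 63.4% ± 0.685, SD, n = 2 each). The conditions did not overlap, yet the Wilson interval of each library spanned more than this difference, from 51.6% to 69.5% in DMSO replicate 1. The log2 change of the early to terminal ratio was 0.17 (SE 0.46, 95% interval -0.81 to 1.15), with an edgeR adjusted p of 0.870. PCF11 as a whole had 31.0 and 36.4 CPM in DMSO and 53.6 and 43.3 CPM after imatinib, and early and terminal pairs both were higher in each imatinib library than in each DMSO library (17.6 and 20.8 against 32.0 and 24.7 CPM early, 11.3 and 13.7 against 18.1 and 14.6 CPM terminal).

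The other 8 genes ended early in few of their pairs. CPSF2, CPSF6, CSTF1, CSTF2, NUDT21 and PABPN1 had 0.433% to 2.99%, and CPSF4 had 8 early ends among 99 pairs (8.08%, Wilson 95% interval 4.15% to 15.1%). CPSF1 had 0 of 79, which allows a share of up to 3.80% (3 counts) of captured pairs. Only 1 of these 79 pairs started near the canonical start, so the limit does not cover molecules from that start. Some of these early ends lay in defined sites with a hexamer. NUDT21 had 25 pairs at an intron 3 site (chr16:56446505, AATAAA), 1 nt short of the end of a retained-intron transcript, and CPSF6 had 26 pairs at an intron 1 site (chr12:69248686, AATAAA), all of them from the canonical start region.

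The NUDT21 early share was 2.76% and 4.82% in DMSO and 1.93% and 0.851% after imatinib. The imatinib libraries, with 10 and 2 early pairs, were below the DMSO libraries, with 11 and 30. The log2 change of the early to terminal ratio was -1.35 (SE 0.61, 95% interval -2.66 to -0.04), with an unadjusted p of 0.0444 and an adjusted p of 0.245 by edgeR, so it was not called. In the diffSpliceDGE fit it was -1.33, and it moved to -0.84 without DMSO replicate 2 and to -2.22 without imatinib replicate 1.

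Across genes with at least 100 pairs the early shares of the conditions did not overlap and were lower after imatinib in 25.6% of 7572 genes, and higher in 7.29%. Among the 8 members with as many pairs, 4 were lower without overlap (CPSF2, CSTF1, NUDT21 and PABPN1), 1 was higher (PCF11) and 3 overlapped. The median log2 change of the early to terminal ratio over the 2083 genes tested was -0.46, so the direction in NUDT21 was the common one and that in PCF11 was not. Of those genes 1.3% were called in edgeR's diffSpliceDGE test, and none of the 4 members tested (CSTF3, PCF11, NUDT21 and CPSF6) was. In that test CSTF3 had an adjusted p of 0.969, PCF11 0.980, NUDT21 0.250 and CPSF6 0.786.

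**Figure D2:**
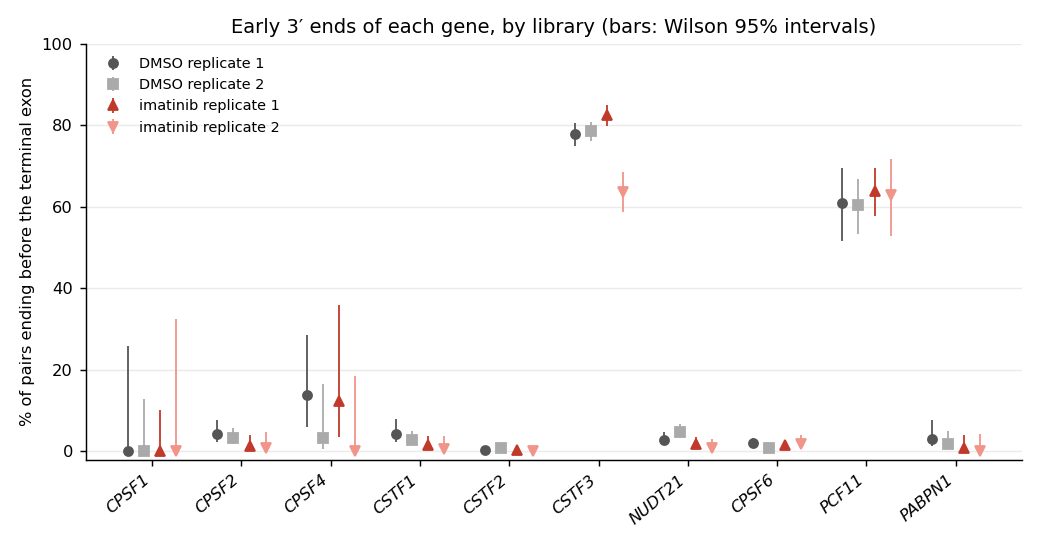
Percent of read pairs that end before the terminal exon in each gene, 1 point per library, with Wilson 95% intervals as bars. CSTF3 lies at 63.8% to 82.6% and PCF11 at 60.4% to 63.9%. The other genes with at least 100 pairs reach at most 4.82%, in DMSO replicate 2 of NUDT21. CPSF4, with 99 pairs, reaches 13.9% in DMSO replicate 1.

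In their 3′ UTRs the factors differed in how many sites they used. CSTF2 (chrX:100820391-100841520, plus strand), the CstF subunit that binds the RNA, had nearly all of its pairs at 1 site 222 nt past its stop codon, which held 98.4% of 2079 pairs, and 9 pairs used the annotated end 811 nt past the stop. A further 31 pairs ended 808 nt past the stop, with AATAAA 21 nt from the end, and are not among the 2079 because 7 A follow. No AATAAA or ATTAAA lies in the last 30 nt before the main site, but AATAAA is within the last 40 nt. With 1 site past the filter, CSTF2 had no test of site choice.

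CPSF2 (chr14:92121969-92172145, plus strand), a subunit of the CPSF core that binds the nuclease, also ended near its stop codon. Of 925 pairs, 84.4% used a site 319 nt past the stop (chr14:92162063, AATAAA), although its annotated 3′ UTR is 10401 nt long. The share was 85.3% and 83.8% in DMSO and 84.5% and 84.6% after imatinib, so the 4 libraries were alike. A further 214 pairs ended 1647 nt past the stop before 7 A, without a hexamer, and are not among the 925.

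CPSF6 (chr12:69239569-69274358, plus strand), the larger partner of NUDT21 in CFIm, used a site 431 nt past the stop (chr12:69269939, AATAAA) in 80.4% and 86.0% of pairs in DMSO and in 88.1% and 73.0% after imatinib. A site 618 nt past the stop took 6.52% and 4.07% in DMSO and 3.66% and 11.4% after imatinib. The deepest library of each condition had the larger share at the first site and the smaller at the second, and the conditions overlapped. The annotated end 4849 nt past the stop held 1.68% of 3633 pairs, and only 11.5% of those pairs started near the canonical start, against 79.1% at the main site.

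CSTF1 (chr20:56392371-56406362, plus strand), the CstF subunit with WD repeats, divided its ends between sites 324 nt (chr20:56404051, ATTAAA) and 526 nt (chr20:56404253, AATAAA) past the stop. The proximal site took 29.5% and 40.9% of pairs in DMSO and 39.2% and 25.2% after imatinib. The distal one took 57.3% and 46.7% in DMSO and 49.8% and 61.9% after imatinib. Here too DMSO replicate 2 and imatinib replicate 1 were alike, and the conditions overlapped at both sites. The annotated end 2634 nt past the stop had 10 pairs.

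NUDT21 (chr16:56429133-56452199, minus strand) used a wide range of sites, at 87, 165, 289, 1033 and 3575 nt past its stop codon. The distal site took 24.6% and 31.9% of pairs in DMSO and 44.7% and 32.3% after imatinib, both imatinib libraries being above both DMSO libraries, imatinib replicate 2 by less than 1 percentage point. The middle site took 39.4% and 37.1% in DMSO and 31.5% and 28.5% after imatinib, again without overlap. The proximal site took 20.4% and 15.2% in DMSO and 12.0% and 24.3% after imatinib, so here the conditions overlapped.

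For all terminal pairs of NUDT21 the mean distance past the stop codon was 1397 and 1685 nt in DMSO and 2024 and 1582 nt after imatinib, and the conditions overlapped. The relative log2 usage changed by 0.42 (SE 0.42) at the distal and by -0.38 (SE 0.42) at the middle site, with an adjusted p of 1 for each in edgeR's diffSpliceDGE test. Without imatinib replicate 1 the distal value was 0.15. Capture differed along the 3′ UTR: 93.2% of pairs at the proximal, 81.6% at the middle and 42.4% at the distal site started near the canonical start. The effect of this on the shares was not tested.

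PABPN1 (chr14:23321457-23326163, plus strand) ended its 3′ UTR mainly at 2 adjacent sites, 872 and 887 nt past the stop, which held 57.6% and 21.6% of 523 pairs. The first took 58.6% and 49.4% in DMSO and 59.3% and 69.8% after imatinib. Of the 523 pairs, 40 and 15 ended at sites 20 and 39 nt past the stop. Both lie beside the A-rich end described next, with 5 and 6 A downstream and no hexamer. The site at 20 nt took 6.25% and 13.8% in DMSO and 5.93% and 0% after imatinib. Far more pairs ended elsewhere: 1143 of all 1750 pairs of the gene (65.3%) ended 29 nt past the stop, before 8 A in the next 10 nt and without a hexamer in the 30 nt shown above. That A-rich end had 43.9 and 80.2 CPM in DMSO and 91.2 and 26.3 CPM after imatinib, so the same pair of libraries, DMSO replicate 2 and imatinib replicate 1, was high.

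CPSF4 (chr7:99438922-99457373, plus strand), a zinc-finger subunit that touches the hexamer, had 70 of its 99 pairs at its annotated end, 871 nt past the stop (chr7:99457371, ATTAAA). CPSF1 (chr8:144393229-144409335, minus strand), the largest CPSF subunit, had 54 of 79 pairs at its annotated end, 86 nt past the stop, and 1 of the 79 started near the canonical start of its 4480-nt transcript. At this depth the choice of ends could not be compared between conditions for these 2 genes.

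Over all genes, 14 of 10236 sites were called for a change in usage (0.137%, edgeR's diffSpliceDGE test), with 538 sites at an unadjusted p under 0.05, and no site of the 10 genes was called. All 22 sites of members in that test had an adjusted p of 1.

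**Figure D3:**
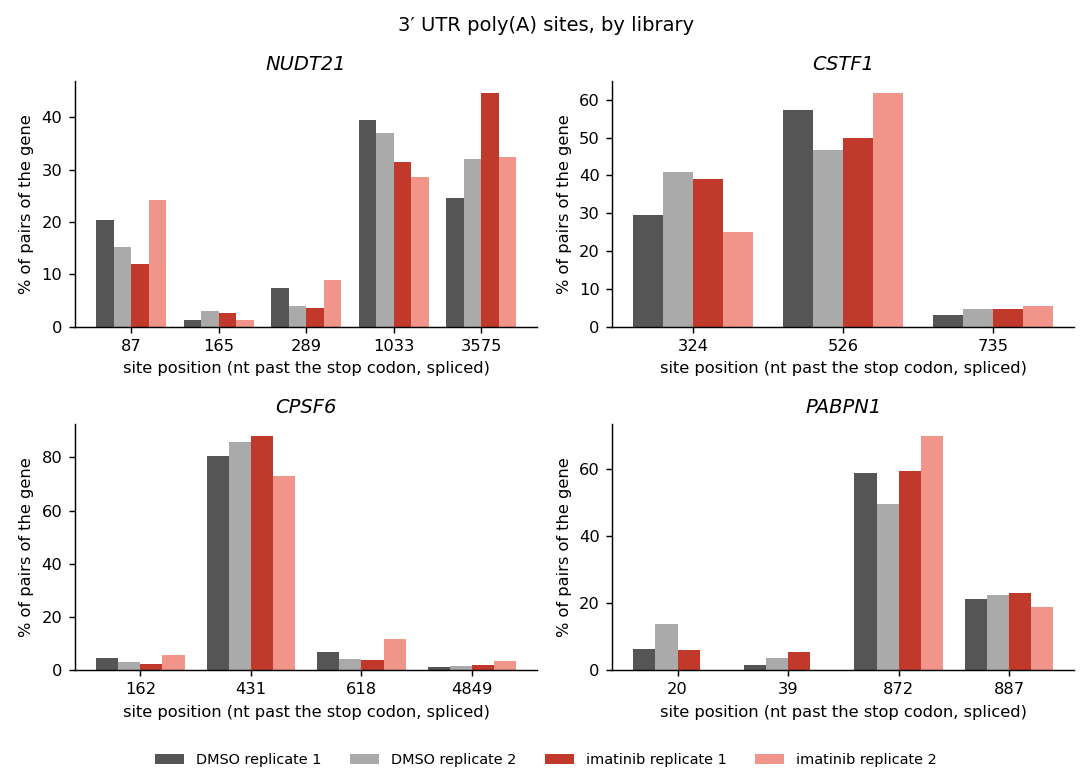
Percent of a gene's read pairs at the 3′ UTR sites of NUDT21, CSTF1, CPSF6 and PABPN1 that reach 1.5% in any library, by distance past the stop codon (nt, spliced), with 1 bar per library. In CSTF1 and CPSF6 the bars of DMSO replicate 2 and imatinib replicate 1 have similar heights, and in NUDT21 the bars at 1033 nt are lower after imatinib.

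The level of each gene is the number of its pairs per 1000000, scaled by TMM factors (CPM). In edgeR's quasi-likelihood test 1800 of 12135 genes were called (14.8%), 1054 higher (8.69%) and 746 lower (6.15%) after imatinib. With DESeq2 the split turned, to 692 higher and 734 lower. None of the 10 members was called, and with DESeq2 the count was also 0. In edgeR's test an unadjusted p under 0.05 was reached by 3783 of the 12135 genes and by none of the members. Their median log2 fold change was -0.16 against 0.03 over all genes tested, and 8 of the 10 values were below 0. In 5 members the CPM of the conditions did not overlap, which was so for 60% of all genes tested.

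Among the CPSF subunits, CPSF2 had 78.7 and 82.0 CPM in DMSO and 59.4 and 66.0 CPM after imatinib. The imatinib libraries were below the DMSO libraries, with a log2 fold change of -0.36 (SE 0.26, 95% interval -0.96 to 0.24, edgeR adjusted p = 0.387). CPSF1 (2.89, 4.73, 7.25 and 3.24 CPM) and CPSF4 (9.73, 5.43, 3.83 and 6.88 CPM, both in the order DMSO 1, DMSO 2, imatinib 1, imatinib 2) were at low counts and the conditions overlapped. Their log2 fold changes were 0.51 (SE 0.50) and -0.54 (SE 0.47). Of the 82 pairs of CPSF1, 54 also lay within 1 kb of the microRNA gene MIR939, which is on the same strand.

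The 3 CstF subunits were each lower in both imatinib libraries than in both DMSO libraries, and none was called. The conditions did not overlap, in either direction, in 60% of all genes tested. CSTF2 had 187 and 133 CPM in DMSO and 72.5 and 121 CPM after imatinib, a log2 fold change of -0.73 (SE 0.33, 95% interval -1.47 to 0.01, edgeR adjusted p = 0.165). Without imatinib replicate 2 the value was -1.17, and without imatinib replicate 1 it was -0.38. With all 4 libraries CSTF2 was called when the replicate numbers were crossed as a block (-0.75, edgeR adjusted p = 0.00755). This fit was added after the data were seen, and it called 3723 genes, against 1800 in the main fit.

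CSTF3 had 244 and 197 CPM in DMSO and 172 and 151 CPM after imatinib. Its log2 fold change was -0.45 (SE 0.26, 95% interval -1.03 to 0.13, edgeR adjusted p = 0.269), and the value kept its sign without any 1 library. CSTF1 had 61.0 and 63.7 CPM in DMSO and 53.8 and 60.7 CPM after imatinib, so the nearest values of the conditions almost touched. Its log2 fold change was -0.13 (SE 0.27, adjusted p = 0.787).

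Of the CFIm subunits, NUDT21 was the steadiest, with 109 and 114 CPM in DMSO and 109 and 101 CPM after imatinib. Its log2 fold change was -0.09 (SE 0.25, 95% interval -0.66 to 0.49, edgeR adjusted p = 0.849). CPSF6 had 184 and 249 CPM in DMSO and 251 and 129 CPM after imatinib, so the spread within each condition was larger than the difference between them. Its log2 fold change of -0.18 (SE 0.34) turned to 0.03 without DMSO replicate 2 and to 0.18 without imatinib replicate 2. Of the NUDT21 pairs 64.1% also counted for an overlapping annotated gene, ENSG00000288725.

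PCF11, with the levels given above, had a log2 fold change of 0.52 (SE 0.29, 95% interval -0.13 to 1.18, edgeR adjusted p = 0.250). It was the only member whose imatinib libraries were both above both DMSO libraries, and the value stayed between 0.37 and 0.63 when each library was left out in turn.

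PABPN1 had 82.3 and 116 CPM in DMSO and 124 and 65.2 CPM after imatinib, a log2 fold change of -0.06 (SE 0.35, edgeR adjusted p = 0.925). The libraries with high values were those high at its A-rich end. With A-rich ends and short pairs left out it had 33.7 and 30.5 CPM in DMSO and 27.2 and 34.8 CPM after imatinib, a narrower range, and the log2 fold change was -0.01 (adjusted p = 0.988). All of its pairs also counted for the annotated read-through gene BCL2L2-PABPN1, whose body covers PABPN1.

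**Figure D4:**
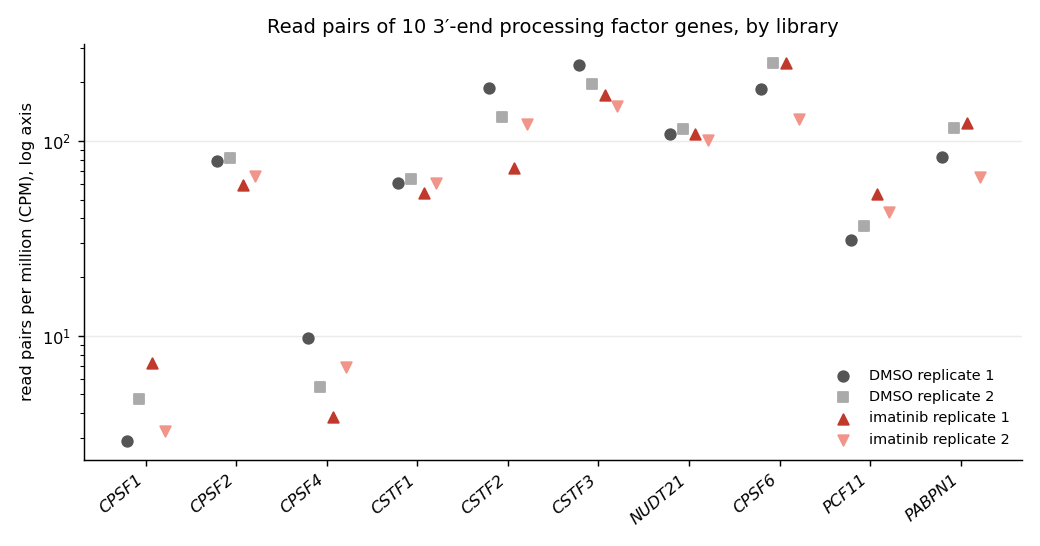
Read pairs per 1000000 (CPM, log axis) of the 10 genes, 1 point per library, DMSO in grey and imatinib in red. CSTF2, CSTF3, CSTF1 and CPSF2 have both imatinib points below both DMSO points, PCF11 has them above, and the other 5 genes overlap.

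In the wider pathway no gene was called either. Of 13 further core factors of 3′ processing, among them the nuclease CPSF3 and the poly(A) polymerase PAPOLA, 12 were tested and none was called. Their log2 fold changes ran from -0.74 to 0.44 with a median of -0.18, and 8 were below 0. Of 4 other poly(A)-binding proteins and 8 genes of the U1 snRNP, which restrains the use of intronic sites, and of early termination, none was called, with medians of 0.01 and -0.18. CLP1 did not pass the filter on low counts. Of these 24 genes and of the 10 members none had an unadjusted p under 0.05 in edgeR's test, against 3783 of the 12135 genes tested. Of all genes tested 14.8% were called. The smallest adjusted p were 0.166 for the 24 genes and 0.165 for the members.

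**Figure D5:**
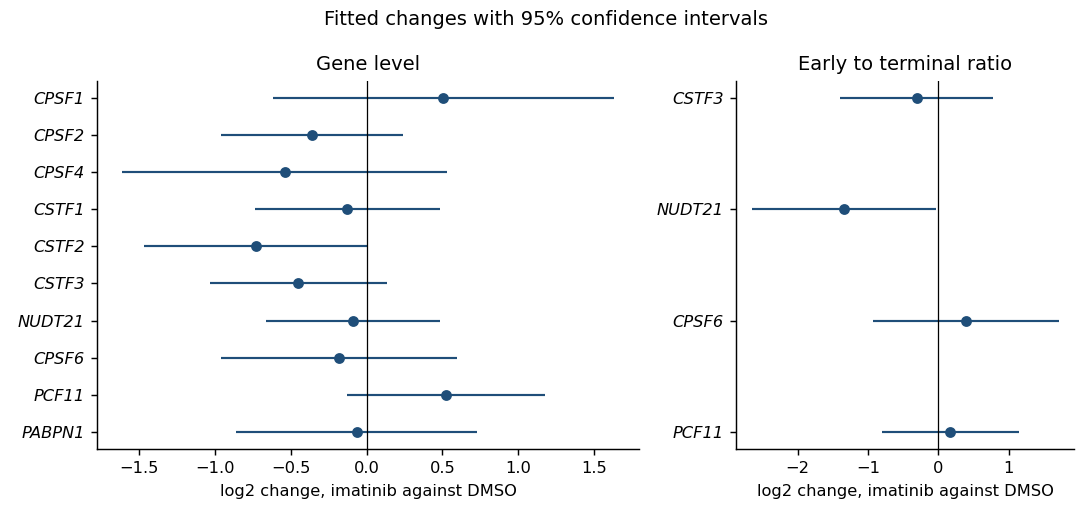
Fitted log2 changes, imatinib against DMSO, as points with 95% confidence intervals: gene levels of the 10 genes (left) and the ratio of early to terminal ends in the 4 genes tested (right). All 10 intervals on the left include 0, and on the right that of NUDT21, -2.66 to -0.04, does not, although its adjusted p was 0.245.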

How the data were processed

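TIF-Seq2 read pairs of K562 cells were analysed, 2 DMSO and 2 imatinib libraries grouped by their labels; 3′T-fill libraries were not analysed here, and the PacBio models, which cover no member, were not used. Per the labels and the paper's methods, the authors trimmed reads (cutadapt 1.16), aligned both ends to hg38 (STAR 2.5.3a), kept unique pairs, removed PCR duplicates by UMI, and deposited raw counts per pair of end positions.

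From these counts, pairs were assigned to Gencode v44 genes. Poly(A) sites were built from 3′ ends with fewer than 7 A in the next 10 nt and 300 bp to 2 Mb between ends. Tags were normalised to a power law (exponent 1.25) and kept at 1 normalised count in at least 2 libraries, then joined within 10 bp. An early end lies before the terminal exon of the canonical transcript. A terminal end lies in it or past it, up to 1 kb beyond the gene's annotated body. CPM are pairs counted for genes per 1000000 after TMM scaling.

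Gene levels were tested with edgeR 4.0.16 (robust quasi-likelihood fit, TMM, filterByExpr, R 4.3.3), and site usage and early ends with diffSpliceDGE (each site, or the early ends, against the gene's other ends), with Benjamini-Hochberg adjustment over all features and calls at an adjusted p under 0.05. Standard errors are the log2 change over the square root of F. The gene-wise diffSpliceDGE test gave too many small p on simulated nulls, so the test of each site or end class was used. It has little power where early ends hold most of a gene. Changes of the early to terminal ratio, with their errors, therefore come from a quasi-likelihood fit with both end classes as columns and library as a term. This fit was added after the data were seen. Values of the ratio with a library left out, and its median over genes, come from the diffSpliceDGE fit. DESeq2 1.42.0 was an alternative. Each test was run on simulated data.

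Members, lists and markers were chosen with earlier results of these data known, and named sites hold at least 10% of a gene's pairs in any library or are the largest in an intron. Sites named outside this rule, such as the second intron 3 site of CSTF3, the A-rich ends and annotated distal ends with few pairs, were chosen after their values were seen. Same-numbered libraries had deviations that correlated at -0.24, and the main fits did not use the numbers as pairs. Whether the numbers pair the cultures was not tested. Replicate counts differed by a chi-square of 10.2 (DMSO) and 16.8 (imatinib) per degree of freedom, so no library was a copy. Wilson intervals (scipy 1.17.1) cover counting error only. Some markers are not reported here.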

Additional observations from a re-analysis of the deposited data

How the results depend on the processing

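With 2 libraries per condition, counts of calls depend on single libraries. The number of genes called for level was 1800 and moved to 2732 without the filter on low counts and to between 820 (without DMSO replicate 2) and 3986 (without imatinib replicate 2) when 1 library was left out. For site usage 14 sites were called, 9 without the filter and 0 to 72 without the same libraries. For early ends 27 genes were called, 11 from pairs that start near the canonical start, 7 with A-rich ends kept and 4 to 131 likewise. With the replicate number as a block the counts were 1148 genes, 0 sites and 0 genes with changed early ends, and no member changed its call. With the numbers crossed, a pairing added after the data were seen, they were 3723, 51 and 85, and 1 of the 10 members, CSTF2, was called for level, with 0 of 22 sites of members and 0 of 4 members for early ends. CSTF2 was also called without imatinib replicate 2. Apart from leaving out a library, the direction turned in 2 of 155 comparisons of single genes or sites, both at the distal terminal site of PCF11: relative log2 usage 0.01 became -0.016 with positions of at least 2 tags and -0.039 with the replicate block. The early share of PCF11 moved from 62.2% to 91.2% for pairs that start near the canonical start. Leaving out 1 library turned the direction in 24 of 123 comparisons of single genes or sites. Gene log2 fold changes then ran from -0.26 to 0.90 in CPSF1, -0.73 to 0.18 in CPSF6 and -0.59 to 0.28 in PABPN1. In the diffSpliceDGE fit, changes of the early to terminal ratio ran from -0.24 to 1.14 in CPSF6 and -1.03 to 0.39 in CSTF3. Relative log2 usage ran from -0.33 to 0.79 (terminal) and -0.28 to 0.095 (intron 3) in CSTF3, from -0.81 to 0.11 and -0.40 to 0.24 at the terminal sites of PCF11, and from -0.57 to 0.43 at the proximal site of NUDT21. It ran from -0.53 to 0.10 and -0.089 to 0.24 at the CSTF1 sites, from -0.58 to 3.55 (intron 1), -0.19 to 0.035 and -0.51 to 1.18 in CPSF6, and from -0.27 to 0.039 at the second site of PABPN1. The cause of these turns was not tested.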

Other observations

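Some molecules linked PABPN1 to its upstream neighbour BCL2L2, a gene that protects cells from death. Read pairs that started at BCL2L2 and ended in PABPN1 numbered 6 and 42 in DMSO and 20 and 5 after imatinib, 73 in all, against 113 pairs that started and ended at BCL2L2 and 1750 within PABPN1. DMSO replicate 2 and imatinib replicate 1 again had the most. These counts are not scaled to depth, and A-rich ends were kept in them. The libraries held 3695520 and 5135829 read pairs in DMSO and 4263670 and 2263121 after imatinib. The part of depth in the read-through counts was not tested.

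A-rich ends were also found in exons before the terminal one in other members. CSTF3 had 127 pairs that ended in exon 9 (chr11:33103164) before 8 A and without a hexamer in the last 30 nt, at 12.9 and 5.43 CPM in DMSO and 6.24 and 6.48 CPM after imatinib. CPSF2 had 34 such pairs in exon 3 (chr14:92130977) and PCF11 15 in exon 5 (chr11:83166174), both before 8 A. A-rich ends made up 24.0% of the pairs of CPSF2 and 68.5% of those of PABPN1, and 0.431% to 4.15% of those of the other 8 genes.

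The start clusters of the members lay close to the annotated starts. The main start cluster held 81.7% of the pairs of CSTF3 and 83.2% of those of CSTF2, and lay 0 and 20 nt from the canonical start. PCF11 used a start 5 nt upstream and another 28 nt downstream of it, with 36.2% and 21.3% of pairs, and CPSF6 used starts at 3 and 30 nt with 38.1% and 26.3%.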
